A study of Mus musculus with 2 samples.

Results

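The genes described here write, copy, read and remove cytosine methylation in DNA: Dnmt1, Dnmt3a, Dnmt3b, Dnmt3l, Tet1, Tet2, Uhrf1, Hells and Mbd2. They were taken as every gene probe on the array whose gene name was 1 of these symbols or an older symbol of the same gene (Cxxc6 for Tet1 and E130014J05Rik for Tet2). This gave 14 probes for 9 genes, of 41174 gene probes and 19504 named genes on the array. Of the 14 probes, 13 were well above background, by the scanner software's own mark, on at least 1 array, and all 13 were so on both arrays. Dnmt1, Dnmt3b, Dnmt3l, Tet1 and Hells had 1 probe each, Uhrf1, Tet2 and Mbd2 had 2, and Dnmt3a had 3.

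Total RNA of R1, an established line of mouse embryonic stem (ES) cells, was measured on 2 Agilent arrays read in a single colour (Cy3). The day 0 group was undifferentiated ES cells, which per the labels' design text were kept on mitotically inactive fibroblast feeders with 15% FBS and LIF at 1000 U/ml. The day 6 group was embryoid body cells of the same line after direct neural differentiation, described in the labels as neural precursors. Both groups carry the same R1 genotype, and no genetic change or further agent is named for either. The sources used here do not say how feeder cells were removed or which medium was used up to day 6, so medium, feeders, aggregation and differentiation cannot be told apart. Each group held 1 array, so no difference below has a replicate check, and no test or p-value was possible. The ± values are the software's error of a spot, or its propagation to a log2 difference, and hold no variation between cultures.

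Methyl groups on cytosine, mostly in CpG dinucleotides, are placed on unmethylated DNA by the de novo enzymes Dnmt3a and Dnmt3b, helped by the catalytically inactive cofactor Dnmt3l. After replication Uhrf1 recognises hemimethylated CpG and brings in Dnmt1, which copies the mark to the new strand, and the remodeller Hells opens chromatin for this work. Tet enzymes oxidise 5-methylcytosine as a step towards its removal, and Mbd2 binds methylated CpG and recruits a repressor complex. In mouse ES cells Dnmt3b, Dnmt3l and Tet1 are known for high expression.

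The culture labels were checked against marker genes. A log2 difference is day 6 minus day 0 throughout, and 2-fold is 1 unit of it. Of 7 measured markers of pluripotent cells, 6 were 2-fold or more lower on day 6, among them Pou5f1 (161-fold). Their median log2 difference was -6.17, and the exception was Sox2 at -0.43, a gene also used by neural precursors. Of 10 measured neural markers, 9 were 2-fold or more higher, among them Fabp7 (319-fold) and Hes5 (268-fold), and the median was 4.59. The neural exception was Nes at 0.34. The brightest Pax6 probe gave 2.49 and its other probes 0.00 and 2.26. Fibroblast markers were included for the feeder cells. Of 11 measured, 6 were lower by this measure, Pdgfra, well above background on day 6 only, was higher, and the median was -1.59. Lox, well above background on day 0 only, was at least 118-fold lower and S100a4 159-fold. The brightest Thy1 probe had a log2 difference of -4.89 and the other -1.89. Vim, Col3a1 and Postn stood at 0.27, 0.22 and 0.29. The summed intensity of the 11 markers was 316282 on day 0 and 278132 on day 6, of which Vim made up most. Without Vim, left out after its values were seen, the sums were 139910 and 29076. Fap was not well above background on either array. Fibroblast markers thus gave signal on both arrays and did not share a direction, and their part in the differences below was not tested. In such bulk RNA, fewer cells of a type and less RNA per cell cannot be told apart. The arrays shared a slide and a scan but not a position, and position cannot be told apart from group.

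Among the members, the de novo genes Dnmt3l and Dnmt3b, the oxidase genes Tet1 and Tet2 and the remodeller gene Hells were lower on day 6 by 2-fold or more, while the maintenance pair Dnmt1 and Uhrf1, the de novo enzyme Dnmt3a and the reader Mbd2 stayed within 2-fold. Of the 13 probes, 6 (46.2%) were lower on day 6 by 2-fold or more and 0 were higher by as much. Over all 28378 probes well above background on at least 1 array, 18.1% were lower and 17.5% higher by that measure. At 4-fold, 3 member probes were lower (23.1%), against 6.64% of all probes, and 0 were higher, against 6.53%. The 6 probes belonged to 5 genes, Dnmt3l, Dnmt3b, Tet1, Hells and Tet2. The median log2 difference was -0.70 over the member probes and -0.03 over all probes. These genes were chosen with earlier results of these data known, so the shares are a description.

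**Figure D1:**
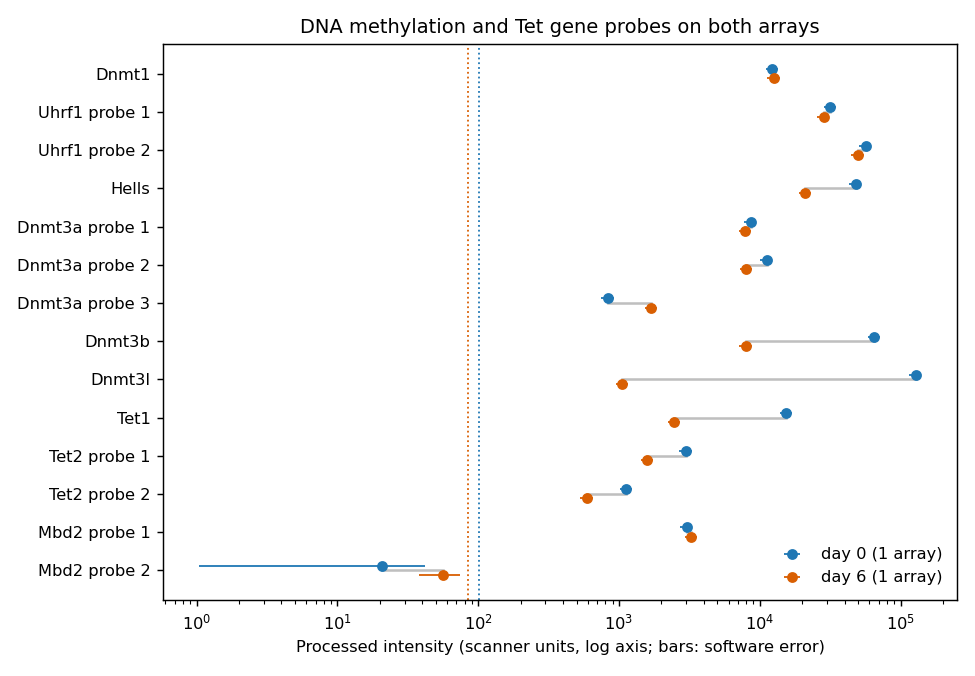
Processed intensity in scanner units (log axis) of all 14 member probes on day 0 (blue) and day 6 (orange), 1 array each, with bars for the software's error. Dotted lines mark the lowest intensity well above background on each array (102 on day 0 and 85.2 on day 6). Probes of a gene are numbered along its transcript. Dnmt3l spans the widest gap, from 127541 to 1058, and Mbd2 probe 2 lies left of both dotted lines. Its lower day 0 bar, which reaches almost to 0, is shortened.

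The cofactor gene Dnmt3l differed most. Dnmt3l lacks methyltransferase activity of its own and stimulates Dnmt3a and Dnmt3b. Its probe (NM_019448, at mm7 chr10:77717971-77718030, plus strand) read 127541 ± 12754 at day 0 against 1058 ± 107 at day 6, in scanner intensity units. The signal was bright on day 0 and still well above background on day 6. The log2 difference was -7.14 ± 0.21, or 141-fold lower, and 0.0493% of all probes had a lower value. It is a single probe, so no other part of the transcript was measured.

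The de novo enzyme gene Dnmt3b was also far lower on day 6. Its probe (NM_010068, at mm7 chr2:153428204-153428263, plus strand) read 65116 ± 6512 on day 0 and 7964 ± 797 on day 6. The error ranges of the arrays were far apart, and the day 6 signal stayed well above background. The log2 difference was -3.25 ± 0.20, or 9.54-fold lower, and 2.46% of all probes had a lower value. The array file lists further Dnmt3b transcript accessions for the same probe, so the value does not separate them.

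Dnmt3l and Dnmt3b had the largest differences of the members, and the DNA before their start sites differed in its content of CpG, the dinucleotide in which most DNA methylation lies. The bases before the start are shown for Dnmt3b (GRCm38.p6 chr2:153649199-153649448, plus strand) and for the most upstream of 3 listed starts of Dnmt3l (GRCm38.p6 chr10:78042037-78042286, plus strand), from the RefSeq promoter table, with each CpG in capitals.
Dnmt3b: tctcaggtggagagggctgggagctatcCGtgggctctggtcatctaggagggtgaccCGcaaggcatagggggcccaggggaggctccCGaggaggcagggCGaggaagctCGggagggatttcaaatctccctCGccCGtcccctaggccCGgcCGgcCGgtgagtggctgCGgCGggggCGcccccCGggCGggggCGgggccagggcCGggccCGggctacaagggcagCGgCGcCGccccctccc
Dnmt3l: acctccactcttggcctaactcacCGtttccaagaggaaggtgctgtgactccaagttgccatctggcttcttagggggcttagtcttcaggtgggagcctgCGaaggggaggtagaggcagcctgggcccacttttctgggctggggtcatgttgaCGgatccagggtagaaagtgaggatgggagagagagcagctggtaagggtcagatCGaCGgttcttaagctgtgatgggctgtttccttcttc
The Dnmt3b window of 250 bases held 21 CpG, with an observed over expected ratio of 0.61, and 83.7% of 32851 such windows held fewer. The Dnmt3l window held 5 CpG (ratio 0.27), more than 44.4% of windows. The windows before its other starts held 4 and 3, more than 37.8% and 29.0% of windows. The median over all windows was 6. Both genes were many-fold lower on day 6, Dnmt3b with a window above the median CpG count and Dnmt3l with windows somewhat below it. No methylation was measured in this study.

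The second de novo enzyme gene, Dnmt3a, was within 2-fold by every probe, and its probes differed among themselves. Probe 1 has 60 bases that span 782 bases of genome (mm7 chr12:3825243-3826024, plus strand), as a probe across a splice junction does, and its annotation lists both NM_007872 and NM_153743. It is shown for that reason.
Dnmt3a probe 1: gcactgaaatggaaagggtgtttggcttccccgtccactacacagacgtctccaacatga
It had intensities of 8598 ± 860.1 on day 0 and 7872 ± 787 on day 6. The error ranges overlapped before scaling. After scaling, the log2 difference was -0.35 ± 0.20, or 1.7 software errors below 0.

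Probe 2 of Dnmt3a (chr12:3826602-3826661) lies 578 bases further on and read 11166 ± 1117 and 8031 ± 803, a log2 difference of -0.70 ± 0.20. Probe 3 (chr12:3830965-3831024), 4304 bases beyond probe 2, read 833 ± 86.2 and 1698 ± 171, a log2 difference of 0.80 ± 0.21. So the last probe was brighter on day 6 while the other 2 were dimmer, all within 2-fold. The log2 difference at probe 3 was 1.50 ± 0.29 above that at probe 2 (2.83-fold) and 1.15 ± 0.29 above that at probe 1. A range of 1.50 between probes of a gene was larger than in 89.7% of 5509 genes with at least 2 probes well above background on both arrays, where the median range was 0.36. The array file assigns all 3 probes to Dnmt3a, and a gene annotation of mm7 was not used here.

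**Figure D2:**
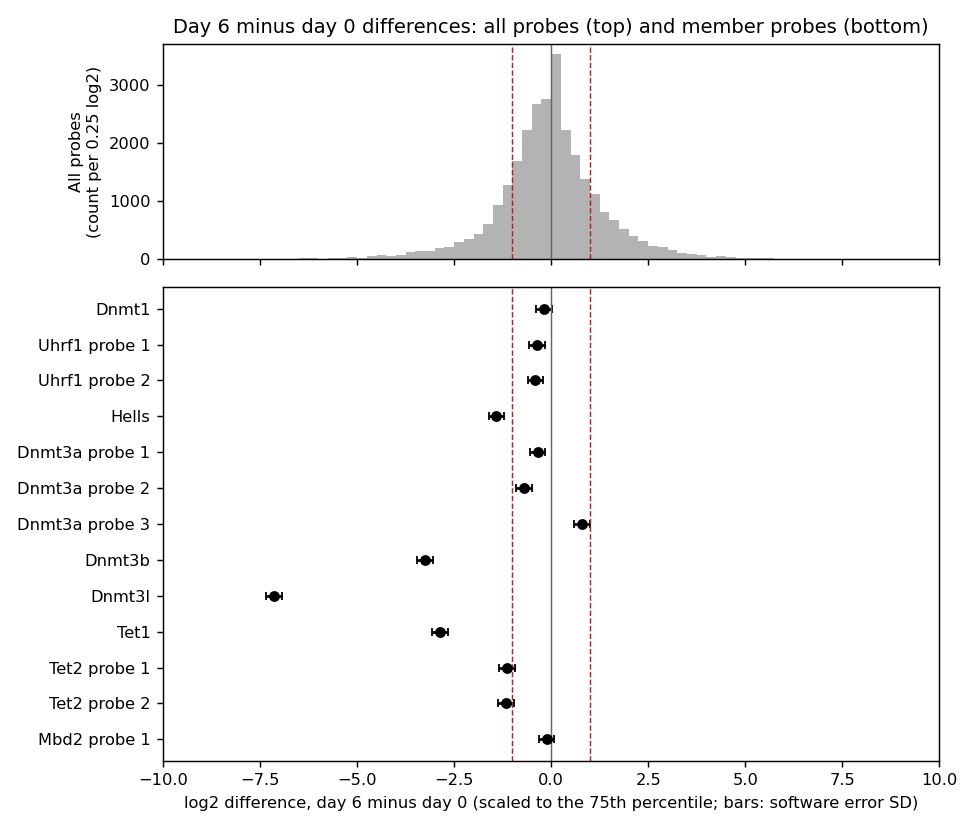
Log2 differences, day 6 minus day 0, of all 28378 probes used (top, counts per bin of 0.25 log2 units) and of the 13 member probes (bottom, bars for the software error SD). Dashed lines mark 2-fold. Dnmt3l at -7.14, Dnmt3b at -3.25 and Tet1 at -2.87 lie in the lower tail, Hells and both Tet2 probes lie just past the lower 2-fold line, and only Dnmt3a probe 3 lies above 0. In the top panel, a probe known only by a bound that fell past 0 is set at 0.

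The maintenance pair Dnmt1 and Uhrf1 stayed within 2-fold. Dnmt1, the methyltransferase that copies the mark at replication, was read by a probe that spans 369 bases of genome (NM_010066, mm7 chr9:20784085-20784453, minus strand), again as across a splice junction, and is shown for that.
Dnmt1: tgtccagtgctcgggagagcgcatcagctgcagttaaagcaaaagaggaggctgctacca
Its intensities were 12283 ± 1228 on day 0 and 12583 ± 1258 on day 6. These overlapped, and after scaling the log2 difference was -0.19 ± 0.20.

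Uhrf1, the reader that recruits Dnmt1, had 2 probes set 44 bases apart (NM_010931, mm7 chr17:54481380-54481439 and chr17:54481483-54481542, plus strand). Probe 1 read 31479 ± 3148 and 28381 ± 2838, and probe 2 read 56446 ± 5645 and 49625 ± 4963. Before scaling, the error ranges of each probe overlapped between days. After scaling, the log2 differences were -0.37 ± 0.20 and -0.41 ± 0.20, or 1.8 and 2.0 software errors below 0. The probes were within 0.04 log2 units of each other.

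Hells, a helicase of the SNF2 family whose loss reduces DNA methylation, passed 2-fold downwards. Its probe (NM_008234, mm7 chr19:38666109-38666168, plus strand) read 47938 ± 4794 on day 0 and 20993 ± 2099 on day 6. The error ranges did not overlap. The log2 difference was -1.41 ± 0.20, or 2.67-fold lower, and 11.3% of all probes had a lower value.

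Hells is expressed with DNA replication, as are Uhrf1 and Dnmt1, and replication genes were therefore listed beside them. Of 23 replication genes, 3 were 2-fold or more lower and 0 were higher by as much, and the median log2 difference was -0.43. Over all 14966 genes measured, 20.1% were lower and 17.8% higher by that measure, and the median was -0.09. The 3 lower genes were Ccne1, a G1 cyclin (5.72-fold), Cdt1, a licensing factor (2.33-fold), and Mcm5, a subunit of the replicative helicase (2.06-fold). Cdt1 and Mcm5 fell short of 2-fold under some settings. Pcna, the replication clamp that also binds Dnmt1, had a log2 difference of -0.29 ± 0.20. Dnmt1, at -0.19, and Uhrf1, at -0.41, thus lay above or near the replication median, and Hells lay among its lower values.

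The window before the Hells start (GRCm38.p6 chr19:38930740-38930989, plus strand) is shown because it was the only member window with an E2F-like match. CpG is again in capitals.
Hells: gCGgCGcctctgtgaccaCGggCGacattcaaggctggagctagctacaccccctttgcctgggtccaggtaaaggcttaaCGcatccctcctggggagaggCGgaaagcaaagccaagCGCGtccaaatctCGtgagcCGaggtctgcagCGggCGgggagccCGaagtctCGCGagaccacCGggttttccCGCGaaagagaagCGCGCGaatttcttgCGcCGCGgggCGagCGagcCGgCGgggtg
The letters searched were TTTCCCGC and TTTGGCGC on both strands. Of all windows, 1.3% held a match, and of 15 windows for 8 members, 1 did. The CCAAT box (CCAAT on both strands) was in 4 member windows, of Dnmt1 and Uhrf1, and in 33.8% of all windows. The octamer ATGCAAAT was in 0 member windows and 1.6% of all windows. A match is only a match of letters.

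The Tet oxidases that are members were lower on day 6. Tet1, an enzyme abundant in ES cells, was read by a probe named Cxxc6 in the array file (mm7 chr10:62332082-62332141, minus strand) at 15378 ± 1538 (day 0) and 2462 ± 247 (day 6). The error ranges were far apart. The log2 difference was -2.87 ± 0.20, or 7.29-fold lower, and 3.29% of all probes had a lower value.

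Before the Tet1 start (GRCm38.p6 chr10:62887325-62887574, minus strand) the window held 15 CpG. It is shown for comparison with that of Dnmt3b, the member nearest to it in its difference.
Tet1: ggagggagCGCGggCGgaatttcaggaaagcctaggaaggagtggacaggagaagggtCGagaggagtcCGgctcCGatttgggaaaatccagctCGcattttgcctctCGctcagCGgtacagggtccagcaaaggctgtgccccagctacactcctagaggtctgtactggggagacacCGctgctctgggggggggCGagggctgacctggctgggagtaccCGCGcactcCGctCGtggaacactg
The observed over expected ratio was 0.63, near the 0.61 of Dnmt3b. Tet2 had 51 CpG, more than 99.9% of all windows.

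Tet2, an oxidase best known in blood cells, had 2 probes 1742 bases apart (NM_001040400, mm7 chr3:133263123-133263182 and chr3:133261322-133261381, minus strand). Probe 1 read 2989 ± 299.8 on day 0 and 1592 ± 160.2 on day 6. Probe 2 read 1127 ± 115 and 589.8 ± 62.0. Both were brighter on day 0, with error ranges apart. The log2 differences were -1.13 ± 0.21 (2.19-fold lower) and -1.16 ± 0.21 (2.23-fold lower), within 0.02 of each other. They lie less than 1 software error past the 2-fold line, and without background subtraction probe 1 was 2.07-fold lower and probe 2 lay on that line.

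Mbd2, a methyl-CpG binding protein of the NuRD repressor complex, was close to level by its usable probe. Probe 1 read 3021 ± 303 on day 0 and 3251 ± 326 on day 6, and the error ranges overlapped. After scaling, the log2 difference was -0.12 ± 0.20. Probe 2, designed on AF072244, read 20.9 and 56.0 and was not well above background on either array, so no fold is given for it.

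**Figure D3:**
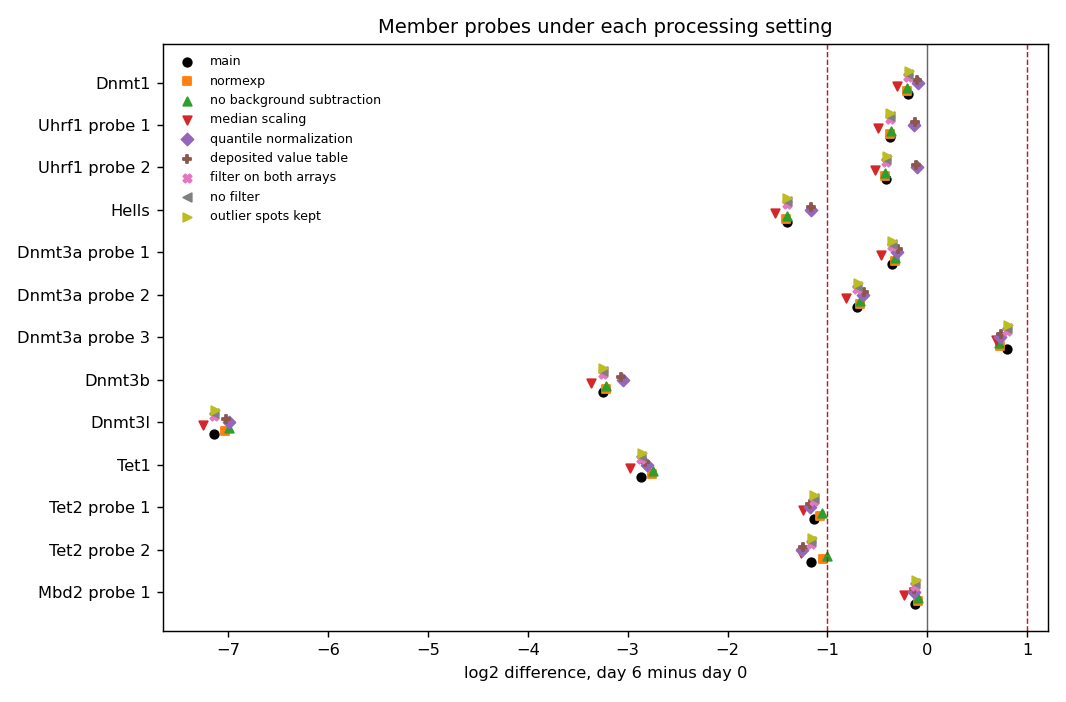
Log2 differences, day 6 minus day 0, of the 13 member probes under the main setting and 8 others (symbols). Dashed lines mark 2-fold. No probe changed sign. Quantile normalization and the authors' deposited table move Uhrf1 and Hells towards 0 (Uhrf1 probe 2 to -0.10 and -0.11, Hells to -1.16 in both).

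The other genes of the pathway follow by list, each gene by its brightest probe. Over all genes measured, 17.8% were higher on day 6 by 2-fold or more and 20.1% were lower. Among 21 measured genes of oxidation and demethylation, 7 were higher by that measure (33.3%) and 6 were lower (28.6%), and the median was 0.02. Of these 21, 2 are known only by a bound. Of 12 measured partners of maintenance and de novo methylation, 2 were higher and 2 were lower, 16.7% each way and near the shares of all genes. Their median was 0.17. Both directions were thus present in both of these lists, as over all genes.

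Tet3, the remaining Tet oxidase, had probes in opposite directions. Its brightest probe (mm7 chr6:83388140-83388199, minus strand) went from 1428 to 8649, which is 2.38 ± 0.21 in log2 (5.19-fold higher). A second probe, named B430006D22Rik in the array file and tied to Tet3 by an older symbol (chr6:83428120-83428179), read 393 and 162, a log2 difference of -1.50 ± 0.27. Another was not well above background on either array. The brightest Tet3 probe was thus higher on day 6 where Tet1 and Tet2 were lower, but the probes of Tet3 do not give a single direction.

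Other genes of demethylation also stood apart. Cxxc4, a CXXC protein that binds unmethylated CpG and interacts with Tet2, was well above background on day 6 only, at least 39.2-fold higher than on day 0. The glycosylase gene Neil3 was 4.14-fold higher by its brightest probe (log2 2.05), with others at 2.72 and 4.18. Idh1, whose enzyme makes the oxoglutarate that Tet enzymes use, was 3.50-fold higher. In the other direction Dppa3 (Stella), which protects the maternal genome from oxidation and restrains Uhrf1, was 25.7-fold lower, from 34593 to 1574. Hmces, a protein of abasic site repair, was 6.48-fold lower, and Gadd45a, a stress protein linked to demethylation, 3.91-fold lower. The glycosylase genes Tdg and Mbd4, which remove bases made from methylcytosine, had log2 differences of 0.06 ± 0.20 and -0.16 ± 0.20, and the sign for Tdg varied with the setting.

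Among the partners, Nsd2, a histone H3 lysine methyltransferase, was 6.86-fold higher by its brightest probe, with other probes at log2 differences of 0.82 to 2.55. Uhrf2, the paralogue of Uhrf1, was 2.12-fold higher, from 17023 to 42199, and its other probes gave 0.99 and 1.24. Uhrf1 itself stood at -0.41. Trdmt1 (Dnmt2), which methylates transfer RNA, was 2.28-fold lower and Usp7, a deubiquitinase that binds Dnmt1 and Uhrf1, 2.23-fold lower. Uhrf2 and Usp7 fell short of 2-fold under some settings, and averaging the probes of each gene put the median of the partners at -0.08.

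**Figure D4:**
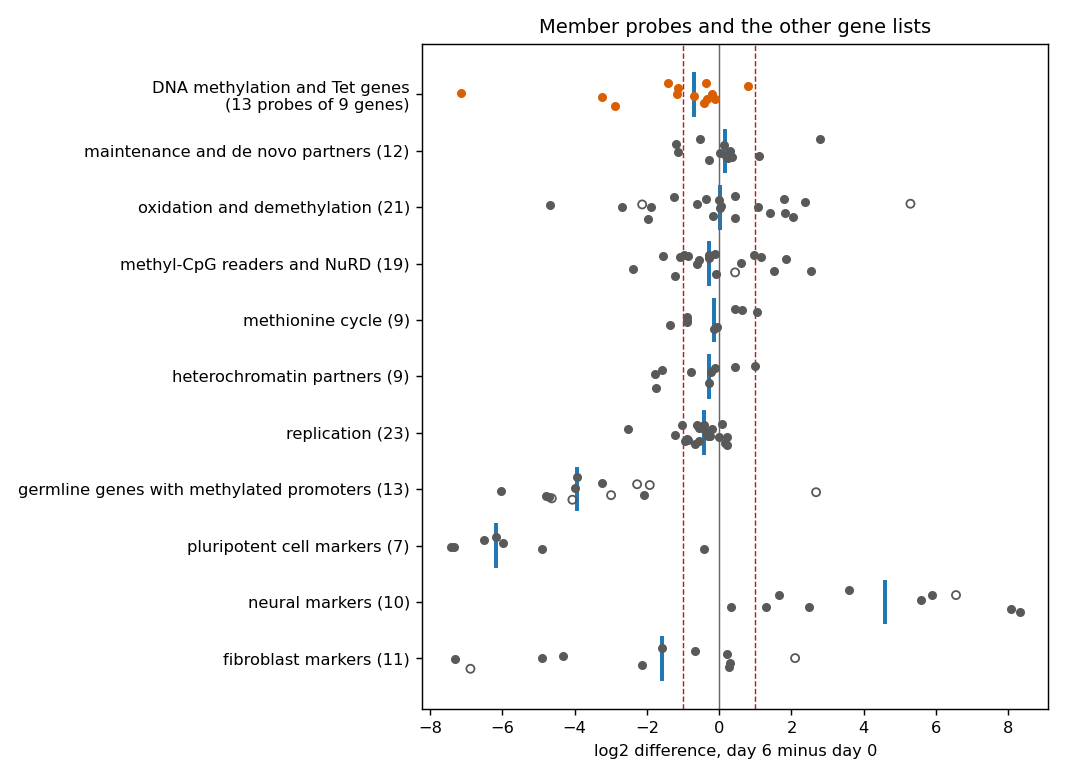
Log2 differences, day 6 minus day 0, of the 13 member probes (orange) and of the genes of the other lists (grey, each gene by its brightest probe). The number measured stands after each name. Open circles are bounds, blue bars are medians and dashed lines mark 2-fold. The member median is -0.70, the replication median -0.43 and the germline median -3.94, and the oxidation and reader lists reach both sides.

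Of 19 measured readers of methylated CpG and genes of the NuRD complex that Mbd2 joins, 4 were higher and 4 lower by 2-fold or more. This is 21.1% each way, near the 17.8% higher and 20.1% lower of all genes. The median was -0.28, or 0.07 after quantile normalization. The zinc finger readers Zbtb4 and Zbtb33 (Kaiso) were 2.86-fold and 2.24-fold higher, and the second Zbtb33 probe gave 0.49. The NuRD helicase gene Chd3 was 5.81-fold higher, with other probes at 2.07 to 2.47. The NuRD subunit genes Mta3, Gatad2a and Mbd3 were 5.23-fold, 2.35-fold and 2.13-fold lower, and the reader Zbtb38 2.92-fold lower. Gatad2a and Mbd3 fell short of 2-fold under some settings. Mbd1 had a log2 difference of 0.60 ± 0.20.

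Methionine cycle genes, which supply and recycle the methyl donor, passed 2-fold downwards in 1 of 9 measured and upwards in 1. This is 11.1% each way, against 20.1% lower and 17.8% higher of all genes, and the median of the list was -0.15. Mat2a, which makes S-adenosylmethionine, was 2.55-fold lower and Ahcyl1, a relative of the hydrolase of its product, 2.07-fold higher, though short of 2-fold under some settings. Of 9 heterochromatin partners, 3 passed 2-fold downwards (33.3%, against 20.1% of all genes) and 0 upwards, and the median was -0.27. These were Zfp57 (3.41-fold), a zinc finger protein that keeps methylation at imprinted regions, its corepressor Trim28 (3.37-fold) and the histone chaperone gene Daxx (2.98-fold).

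Germline genes are a known class whose promoters are methylated in somatic cells. Of 13 measured, 12 passed 2-fold downwards (92.3%, against 20.1% of all genes) and 1 upwards (7.69%, against 17.8%), and the median was -3.94. Of these 13, 6 are known only by a bound. The brightest probes of Taf7l, Tex101, Slc25a31, Stk31 and Tex11 were well above background on day 0 only, so they could not come out higher. With the filter on both arrays the median was -3.98. Asz1 and Dpep3 had no probe well above background on either array. Tex19.1, Ddx4 and Mael, which act in transposon control and the germ cell lineage, were 65.4-fold, 27.4-fold and 26.4-fold lower, and Stk31 at least 24.8-fold lower. The exception, Brdt, a bromodomain protein of the testis, was well above background on day 6 only. Its brightest probe read 107 on day 0 and 798 on day 6, or 6.39-fold higher (log2 2.68 ± 0.42), and the other gave 1.84. The lowest value of the brightest probe over the settings was 1.61. Methylation of the promoters of these germline genes was not measured.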

How the data were processed

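Each deposited scanner file lists a background-subtracted, detrended intensity for every spot with its error, and the mean and local background signals, per the file headers (Feature Extraction 9.5.3.1, design 014868, genome mm7). The authors also deposited a log2 value table whose making the sources used here do not describe. Its sorted columns differed by at most 0.000469, its median was 8.53 in both columns, and its differences correlated at 0.996 with those of the scanner files across 28378 probes, so direction and log2 scale were taken as settled and its background steps stay unknown.

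Control and outlier spots were left out, log2 intensities of spots of a probe averaged, and each array's 75th percentile subtracted (3758 on day 0, 4388 on day 6). Well above background were 25227 probes (61.5%) on day 0 and 26882 (65.5%) on day 6. A probe was used where it was so on at least 1 array. Where it was so on 1 array only, the fold is a bound, with the dim array set at the higher of its lowest such value and the probe's own. A bound set by the probe's own value, as for Brdt, equals the measured difference. Bounds hold for the main setting only. Probes were named through a RefSeq table of GRCm38.p6, used for names. A listed gene took its brightest probe. The median SD between spots of probes spotted 10 times was 0.0541 (day 0, 127 probes) and 0.0482 (day 6, 126 probes) log2 units, and the number of arrays limits precision. Promoter letters came from RefSeq, for 8 of the 9 members. Python 3.11.15, numpy 2.4.6, pandas 2.3.3 and limma 3.58.1 (normexp, offset 50) were used.

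Every member probe was named. Of each list, the 4 largest differences past 2-fold in each direction were named, plus Tet3, Uhrf2, Mbd1, Mbd3, Mbd4, Tdg and Pcna, with some marker genes given only in the counts and some listed genes not reported here. Members, lists and this rule were chosen with earlier results of these data known.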

Additional observations from a re-analysis of the deposited data

How the results depend on the processing

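No paired analysis was possible because each group had 1 array, and leaving out a replicate was likewise not possible. Of 90 recomputed member differences, 5 moved by more than the software error and 0 changed sign. The count of member probes at least 2-fold lower was 6 under each alternative that counted probes, and the count at least 2-fold higher was 1 with no filter, by the dim Mbd2 probe. With quantile normalization Uhrf1 stood at -0.10 and Hells at -1.16, and with the authors' deposited table at -0.11 and -1.16. The mean of the Dnmt3a probes was -0.08. Median scaling put the median of all genes at -0.20 from -0.09, and no sign of a member changed with it.

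Of 100 list medians, 18 moved. With quantile normalization the oxidation, reader and replication medians were 0.29, 0.07 and -0.22, and with the authors' deposited values 0.28, 0.06 and -0.23. For germline genes normexp gave -3.16, unsubtracted signal -2.98, the use of all probes -3.24 and averaging of probes per gene -3.25. The neural median was 4.18, 4.10, 3.60 and 3.42 with normexp, no background subtraction, the filter on both arrays and the mean of probes. With no filter the methionine and fibroblast medians were -0.79 and -1.12. With the mean of probes the partner and heterochromatin medians were -0.08 and -0.55. The cause was not tested, except that a changed filter or probe rule uses other values by construction. Of 46 named list genes at least 2-fold apart, 0 changed sign and 7 fell short of 2-fold under some setting: Usp7, Uhrf2, Gatad2a, Mbd3, Ahcyl1, Cdt1 and Mcm5. Dim probes are known only by a bound, which holds for the main setting. Over the settings the smallest differences were 4.32 for Cxxc4, 1.61 for Brdt, -3.43 for Stk31 and -5.71 for Lox.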
